A study of Homo sapiens with 4 samples.

Results

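The 45 genes described here are the canonical histone genes whose transcripts were counted in single HCC1143 cells: every gene symbol in 4 tables of UMI counts that begins with HIST1H, HIST2H, HIST3H or HIST4H. They are 45 of the 18131 genes listed in any of the tables. By family they comprise 4 linker H1 genes, 16 H2A genes, 14 H2B genes, 3 H3 genes and 8 H4 genes. The tables listed 42 of them in paclitaxel-treated cells at 24 h, 43 in DMSO-treated cells at 24 h, 42 in paclitaxel-treated cells at 72 h and 44 in DMSO-treated cells at 72 h. All 4 tables listed the same 40, 4 H1 genes and 36 core histone genes, and all sums below are over these 40. A table lists a gene only if about 1% or more of its cells held a UMI of it, so that a gene missing from a table was not necessarily at 0. The 5 members missing from at least 1 table (HIST1H2AD, HIST1H2AK, HIST1H2BM, HIST1H3B and HIST2H2BF) had between 0.162 and 0.284 UMIs per 1000000 (CPM) wherever they were listed.

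HCC1143 is an established human triple-negative breast cancer line, and paclitaxel is a taxane that stabilises microtubules and disturbs mitosis. Cells attached for 24 h and were then given 1 nM paclitaxel or the solvent DMSO for 24 h or 72 h, and polyadenylated RNA was captured on 10x Genomics Chromium beads, with 1 library per treatment and time. The libraries were paclitaxel 24 h (776 cells kept), DMSO 24 h (1101 cells), paclitaxel 72 h (520 cells) and DMSO 72 h (783 cells). With 1 library in each group there was no replicate check: no p-value is given, the intervals below are exact 95% Poisson or binomial intervals that cover counting error only, and treatment and library cannot be told apart.

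Histones are the proteins around which DNA is wound. H2A, H2B, H3 and H4 form the nucleosome core, and the linker histone H1 binds where DNA enters and leaves it. The replication-dependent genes of these families lie mostly in clusters, are transcribed in S phase along with DNA replication, and make messenger RNAs that normally carry no poly(A) tail: their 3′ end is a stem-loop, bound by SLBP and cut by a machinery that includes U7 snRNP. Transcripts of some of these genes are also known with a poly(A) tail, made by cleavage further downstream, for example in cells that have left the cycle or differentiate. A poly(A)-primed library therefore sees only a portion of histone RNA. Whether a UMI came from a tail or from an A-rich stretch inside the RNA was not tested.

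The stem-loop is the feature that sets these messages apart from other coding transcripts, and its forms among the members are shown here. In GENCODE 29 transcripts, 29 of the 45 members had annotated bases after the stop codon. There, 25 of these 29 held a 6-base stem, a 4-base loop and the perfectly complementary stem. Only stems of the form GGNNNT with loops of the form TNTN were searched, N being any base. Over all genes with a coding transcript, 48 of 19669 (0.244%) held the same pattern, and 31 of those 48 were histone genes by name. The other 16 members were annotated only as far as their stop codon and could not be searched. Each sequence is written 5′ to 3′, as DNA, with the loop in capitals.
Form in 14 members, among them HIST3H2A and HIST2H2BE: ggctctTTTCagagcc
Form in 5 members, all H4 genes, among them HIST1H4E: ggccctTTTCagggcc
Form in HIST1H2BC, HIST1H2BD and HIST1H2BF: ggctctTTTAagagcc
Form in HIST2H4A and HIST2H4B: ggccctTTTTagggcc
Form in HIST1H3E: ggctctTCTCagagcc
The annotated transcripts continued for 1 to 1917 bases beyond the stem-loop. HIST2H2BE and HIST3H2A, an H2B and an H2A gene that recur below, ran 1729 and 390 bases beyond it. HIST1H4C, the member with the most UMIs, had 51 annotated bases after the stop codon with no such stem-loop, and its annotated transcript ended in an A-rich stretch. It is shown because 19 of its 25 bases are A (chromosome 6, capitals mark A).
HIST1H4C annotated 3′ end: ActtcAAAAAAcAAAAAcAAAAAAA
A window of 20 bases with at least 17 A among the last 30 annotated bases was present in 2 members, HIST1H4C and HIST1H2BG, and in 473 of the 19669 coding genes (2.4%).

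Promoters are shown for members whose values diverge below: HIST1H1A and HIST1H1C, linker genes that differed at 72 h, and the stretch between HIST2H2AC and HIST2H2BE, which point away from each other with annotated starts 323 bases apart. Each runs from 250 bases before to 50 after the RefSeq start (GRCh38.p14). RefSeq promoters were found for 39 of the 45 members, HIST1H4C not among them. Capitals mark 5 motifs, each searched on both strands. CCAAT is a general promoter element bound by the factor NF-Y. TATAAA is the usual element upstream of the start. ATTTGCAT is the octamer known from H2B promoters. AAACACA is the element known from H1 promoters. GGTCCG is the core of an element known from H4 promoters. CCAAT and GGTCCG can overlap, as in ATTGGTCCG.
HIST1H1A, chr6:26017738-26018037, minus strand: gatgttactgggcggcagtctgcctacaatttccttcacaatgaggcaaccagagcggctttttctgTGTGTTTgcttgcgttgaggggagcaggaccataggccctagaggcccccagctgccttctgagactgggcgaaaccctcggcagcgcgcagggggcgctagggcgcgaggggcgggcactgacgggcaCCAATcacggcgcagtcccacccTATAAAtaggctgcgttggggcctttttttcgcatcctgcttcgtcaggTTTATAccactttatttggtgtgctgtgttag
HIST1H1C, chr6:26056421-26056720, minus strand: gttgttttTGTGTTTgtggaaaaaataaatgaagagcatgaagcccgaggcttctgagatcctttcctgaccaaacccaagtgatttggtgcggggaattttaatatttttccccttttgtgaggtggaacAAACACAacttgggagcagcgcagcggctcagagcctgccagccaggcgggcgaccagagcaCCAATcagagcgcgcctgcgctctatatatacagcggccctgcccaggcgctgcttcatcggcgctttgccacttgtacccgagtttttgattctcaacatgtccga
HIST2H2AC, chr1:149886668-149886967, plus strand (the HIST2H2BE promoter, chr1:149886633-149886932 on the minus strand, overlaps most of this stretch but not its last bases): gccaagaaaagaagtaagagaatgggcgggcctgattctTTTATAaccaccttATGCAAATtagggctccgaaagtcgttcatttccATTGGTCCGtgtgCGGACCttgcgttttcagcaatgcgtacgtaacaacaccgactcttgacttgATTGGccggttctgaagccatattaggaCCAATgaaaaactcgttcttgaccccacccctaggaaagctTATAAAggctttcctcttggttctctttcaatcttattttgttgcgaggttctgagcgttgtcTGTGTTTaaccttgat
AAACACA was found in the promoters of 4 of 4 H1 genes and in 5.64% of 35116 RefSeq promoters. GGTCCG was found in 7 of 7 H4 promoters and in 11.3% of all promoters, and ATTTGCAT in 10 of 15 H2A and 6 of 10 H2B promoters and in 1.77% of all. CCAAT was in 32 of 39 member promoters, none of them an H4 gene, and in 34.6% of all. TATAAA was in 26 of 39 and in 11.5% of all. A match describes letters in this window and is not evidence of a bound factor.

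The libraries were deep and similar per cell. The kept cells held between 34850724 UMIs in paclitaxel 72 h and 72024235 UMIs in DMSO 24 h, with median depths of 54864 to 59670 UMIs per cell. All 8 epithelial markers were in every table. ESR1 was listed in every table at only 0.306 to 0.660 CPM, ERBB2 was at 20.4 to 23.5 CPM, and PGR was in none. Summed leukocyte markers (PTPRC, CD3E, CD68 and LYZ) were at 6.70 and 6.07 CPM in paclitaxel and DMSO at 24 h, and at 20.4 and 5.77 CPM at 72 h. Nearly all of this was CD68, at 6.29 and 6.07 CPM in paclitaxel and DMSO at 24 h and at 19.6 and 5.50 CPM at 72 h. CD3E was in no table and PTPRC only in that of paclitaxel 72 h. Endothelial markers summed to at most 1.66 CPM and fibroblast markers to at most 13.9 CPM in any library. Ribosomal protein genes took 30.9% and 25.4% of UMIs in paclitaxel and DMSO at 24 h, and 27.0% and 38.2% at 72 h, which moves every CPM. With ribosomal protein and mitochondrial genes left out of the totals, no call of the 8 members of at least 10 CPM changed at either time. The part of the leukocyte markers in the results was not tested. Ratios between libraries are therefore given as log2 CPM ratios less the same ratio of the median gene, taken over genes that average 10 CPM or more. The median gene had a log2 CPM ratio of paclitaxel over DMSO of −0.14 at 24 h and 0.28 at 72 h, and the remainder is called the relative log2 ratio. A gene is called higher or lower where it differs from this median by at least 1.5-fold with an interval that excludes it. Between 0 and 4 cell barcodes were shared by any pair of libraries.

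Histone UMIs were a small share of the captured RNA, and 1 core gene held most of them in 3 of the 4 libraries. The 40 members summed to 613 CPM in paclitaxel cells and 1369 CPM in DMSO cells at 24 h, and to 694 CPM in paclitaxel cells and 806 CPM in DMSO cells at 72 h. HIST1H4C, which encodes histone H4, held 62.1% of histone UMIs in paclitaxel cells and 79.9% in DMSO cells at 24 h. At 72 h it held 33.6% in paclitaxel cells and 58.3% in DMSO cells. UMIs count captured molecules and are not scaled by transcript length, so these shares describe what was captured, not how much RNA each gene made. Of the 40 members, 31 averaged at least 1 CPM over the libraries and 8 at least 10 CPM. The other 9 lay below 1 CPM and are counted in the sums only.

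The linker H1 genes are HIST1H1A, HIST1H1B, HIST1H1C and HIST1H1E. Together they were at 61.1 CPM in paclitaxel cells and 127 CPM in DMSO cells at 24 h, and at 92.0 CPM in paclitaxel cells and 73.2 CPM in DMSO cells at 72 h. Their share of histone UMIs was 9.97% (9.65 to 10.3%) with paclitaxel and 9.31% (9.13 to 9.49%) with DMSO at 24 h, and 13.3% (12.8 to 13.7%) with paclitaxel and 9.08% (8.80 to 9.36%) with DMSO at 72 h. The paclitaxel 72 h library thus had the highest linker share. This share depends on HIST1H4C: without it, H1 made up 26.3% with paclitaxel and 46.2% with DMSO at 24 h, and 20% with paclitaxel and 21.8% with DMSO at 72 h, so that paclitaxel was then below DMSO at both times.

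HIST1H1C carried most of the H1 signal. It is one of the linker genes known to have polyadenylated transcripts outside S phase, and it was 87.6% and 81.0% of H1 UMIs in paclitaxel and DMSO cells at 24 h, and 95.7% and 84.4% at 72 h. Its level was 53.6 CPM in paclitaxel cells and 103 CPM in DMSO cells at 24 h, and 88.0 CPM in paclitaxel cells and 61.8 CPM in DMSO cells at 72 h. The treated library was thus the lower one at 24 h and the higher one at 72 h. Its relative log2 ratio was −0.81 (−0.87 to −0.75), called lower, at 24 h and 0.23 (0.16 to 0.30), not called, at 72 h.

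The other 3 linker genes were scarcer and lower with paclitaxel at both times. HIST1H1A was at 2.83 CPM in paclitaxel cells and 12.7 CPM in DMSO cells at 24 h, and at 1.21 CPM in paclitaxel cells and 3.96 CPM in DMSO cells at 72 h. HIST1H1E was at 2.92 and 6.75 CPM with paclitaxel and DMSO at 24 h, and at 2.04 and 4.33 CPM at 72 h. HIST1H1B was at 1.80 and 4.85 CPM with paclitaxel and DMSO at 24 h, and at 0.746 and 3.15 CPM at 72 h. In each of these genes DMSO 24 h was the highest library and paclitaxel 72 h the lowest. At a minimum mean of 1 CPM, used for these low genes with its own median gene for the calls (background shares below), the relative log2 ratios were −2.02 (−2.28 to −1.78) and −2.0 (−2.51 to −1.51) for HIST1H1A at 24 h and 72 h. They were −1.07 (−1.34 to −0.81) and −1.37 (−1.78 to −0.97) for HIST1H1E, and −1.29 (−1.62 to −0.96) and −2.36 (−3.02 to −1.75) for HIST1H1B. All 6 were called lower.

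**Figure D1:**
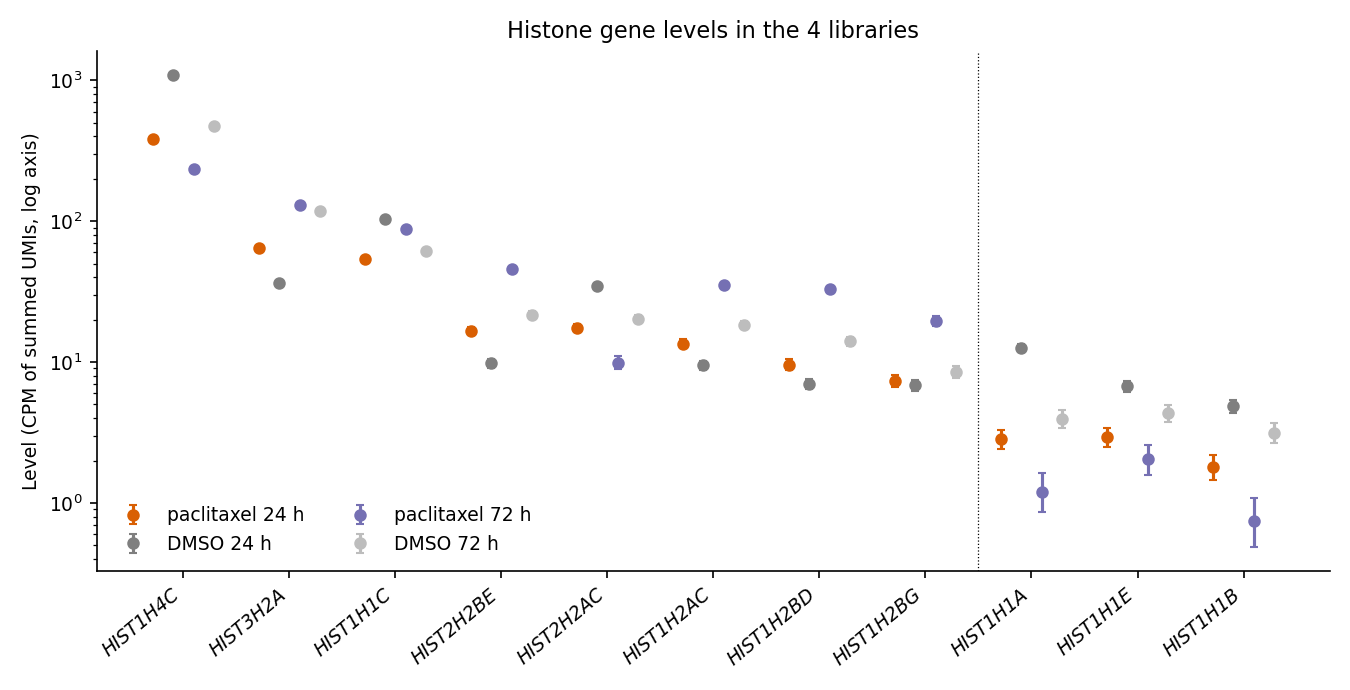
Level of the 8 members that average 10 CPM or more and of the 3 remaining linker H1 genes, in CPM on a log axis, in the 4 libraries (paclitaxel left of DMSO at each time). Points are single libraries and bars are 95% counting intervals. HIST1H4C was at 381 and 1093 CPM with paclitaxel and DMSO at 24 h, and HIST1H1A, HIST1H1B and HIST1H1E were lower with paclitaxel at both times.

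The sum of the core histone genes turned in sign without HIST1H4C, although some single core genes were lower with it. The core sum was 552 CPM in paclitaxel cells and 1241 CPM in DMSO cells at 24 h, and 602 CPM in paclitaxel cells and 733 CPM in DMSO cells at 72 h. Its relative log2 ratio was −1.03 (−1.05 to −1.01) at 24 h and −0.57 (−0.59 to −0.54) at 72 h. Without HIST1H4C the sum was 171 CPM in paclitaxel cells and 148 CPM in DMSO cells at 24 h, and 369 CPM in paclitaxel cells and 263 CPM in DMSO cells at 72 h, and the relative log2 ratio was 0.35 at 24 h and 0.21 at 72 h.

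Among the H4 genes, HIST1H4C (ENSG00000197061, chr6:26103876-26104310, plus strand, GRCh38, 1 exon) was at 381 CPM in paclitaxel cells and 1093 CPM in DMSO cells at 24 h, and at 233 CPM in paclitaxel cells and 470 CPM in DMSO cells at 72 h. DMSO 24 h stood far above the other libraries and paclitaxel 72 h was lowest. Its relative log2 ratio was −1.38 (−1.41 to −1.36) at 24 h and −1.29 (−1.33 to −1.26) at 72 h, called lower at both. The other 7 H4 genes summed to 11.4 and 9.77 CPM with paclitaxel and DMSO at 24 h, and to 36.2 and 18.4 CPM at 72 h. HIST1H4J was at 2.18 and 2.15 CPM with paclitaxel and DMSO at 24 h, and at 10.9 and 2.40 CPM at 72 h, where its relative log2 ratio of 1.90 (1.60 to 2.21) was the highest of any member of at least 1 CPM. HIST1H4E was also called higher at 72 h, at 10.7 CPM in paclitaxel cells and 4.51 CPM in DMSO cells. HIST2H4B was called lower at 72 h (−0.74). All 60-base words near its annotated 3′ end recur in other members, most often HIST2H4A, so that its count is uncertain.

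Among the H2A genes, HIST3H2A and HIST2H2AC moved apart. HIST3H2A, from the small cluster on chromosome 1, was at 64.1 CPM in paclitaxel cells and 36.5 CPM in DMSO cells at 24 h, and at 130 CPM in paclitaxel cells and 118 CPM in DMSO cells at 72 h. Both 72 h libraries were above both 24 h libraries. It was called higher with paclitaxel at 24 h (0.95, 0.88 to 1.02) and not called at 72 h (−0.14, −0.20 to −0.08). HIST2H2AC was at 17.4 CPM in paclitaxel cells and 34.8 CPM in DMSO cells at 24 h, and at 9.87 CPM in paclitaxel cells and 20.2 CPM in DMSO cells at 72 h. Like HIST1H4C, it was highest in DMSO 24 h and lowest in paclitaxel 72 h, and it was called lower at both times (−0.86, −0.97 to −0.75, and −1.31, −1.49 to −1.13). Of the 60-base words near its annotated 3′ end, 37.3% recur in other members, most often HIST2H2AA3. HIST1H2AC was at 13.5 and 9.47 CPM with paclitaxel and DMSO at 24 h and at 34.9 and 18.3 CPM at 72 h, called higher at both times (0.65 at each, 0.50 to 0.80 and 0.53 to 0.78). HIST1H2AE, at 3.28 and 1.5 CPM with paclitaxel and DMSO at 24 h and 8.95 and 4.14 CPM at 72 h, was called higher at both times at the 1 CPM minimum (1.27 and 0.83). HIST1H2AI was called lower at 24 h (−0.63), and HIST1H2AG (−0.64), HIST1H2AH (−0.77) and HIST2H2AB (−0.62) at 72 h.

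The H2B genes were the family most often higher with paclitaxel at 72 h. Their 12 members summed to 50.4 CPM in paclitaxel cells and 43.0 CPM in DMSO cells at 24 h, and to 129 CPM in paclitaxel cells and 64.5 CPM in DMSO cells at 72 h, a relative log2 ratio of 0.37 at 24 h and 0.72 at 72 h. HIST2H2BE was at 16.6 and 9.82 CPM with paclitaxel and DMSO at 24 h and at 46.1 and 21.6 CPM at 72 h, called higher at both times (0.90, 0.75 to 1.04, and 0.81, 0.70 to 0.93). HIST1H2BD was at 9.59 and 6.98 CPM with paclitaxel and DMSO at 24 h, under the 10 CPM minimum. At 72 h it was at 32.9 and 14 CPM, called higher (0.95, 0.82 to 1.09). HIST1H2BG was at 7.39 and 6.84 CPM with paclitaxel and DMSO at 24 h and at 19.5 and 8.53 CPM at 72 h, and was called higher at 72 h only (0.92, 0.74 to 1.09). HIST1H2BJ (0.90) was called higher at 72 h and HIST3H2BB (1.03, 0.59 to 1.48) at 24 h, both at the 1 CPM minimum. Neither HIST1H2BC nor HIST1H2BK, which also have known polyadenylated transcripts, was called at either time. HIST1H2BC was at 4.11 and 4.87 CPM with paclitaxel and DMSO at 24 h and at 7.06 and 6.30 CPM at 72 h. The H3 genes were barely captured: HIST1H3E and HIST1H3H together were at 3.26 and 3.43 CPM with paclitaxel and DMSO at 24 h and at 6.14 and 4.65 CPM at 72 h, with no call.

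Counted over members with at least 10 CPM, paclitaxel gave as many higher as lower calls at 24 h. Of 6 members measured there, 3 were called higher (HIST1H2AC, HIST2H2BE and HIST3H2A), where 6.3% of 8096 genes were, and 3 lower (HIST1H1C, HIST1H4C and HIST2H2AC), where 1.26% were. The members' median relative log2 ratio was −0.08, against 0.00 over all genes tested. At 72 h, 4 of 8 members were called higher (HIST1H2AC, HIST1H2BD, HIST1H2BG and HIST2H2BE), where 11.1% of 8306 genes were, and 2 lower (HIST1H4C and HIST2H2AC), where 7.93% were, with a member median of 0.44. With ribosomal protein and mitochondrial genes left out of the totals, the 72 h split was 7 higher and 2 lower. No call of the 8 members changed with these totals, and the added calls were of members outside these 8. The share of all genes called with these totals is not given here. At the 1 CPM minimum, 5 of 27 members were called higher and 7 lower at 24 h, with 8.57% and 2.45% of 13147 genes, and 8 of 31 were called higher and 9 lower at 72 h, with 13.9% and 10% of 13687 genes. All 4 H1 genes were among the 7 lower members at 24 h, and 3 of 4 among the 9 at 72 h. The members called higher at both times were HIST1H2AC, HIST1H2AE and HIST2H2BE, and those called lower at both were HIST1H1A, HIST1H1B, HIST1H1E, HIST1H4C and HIST2H2AC. No member was called in opposite directions at the 2 times.

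**Figure D2:**
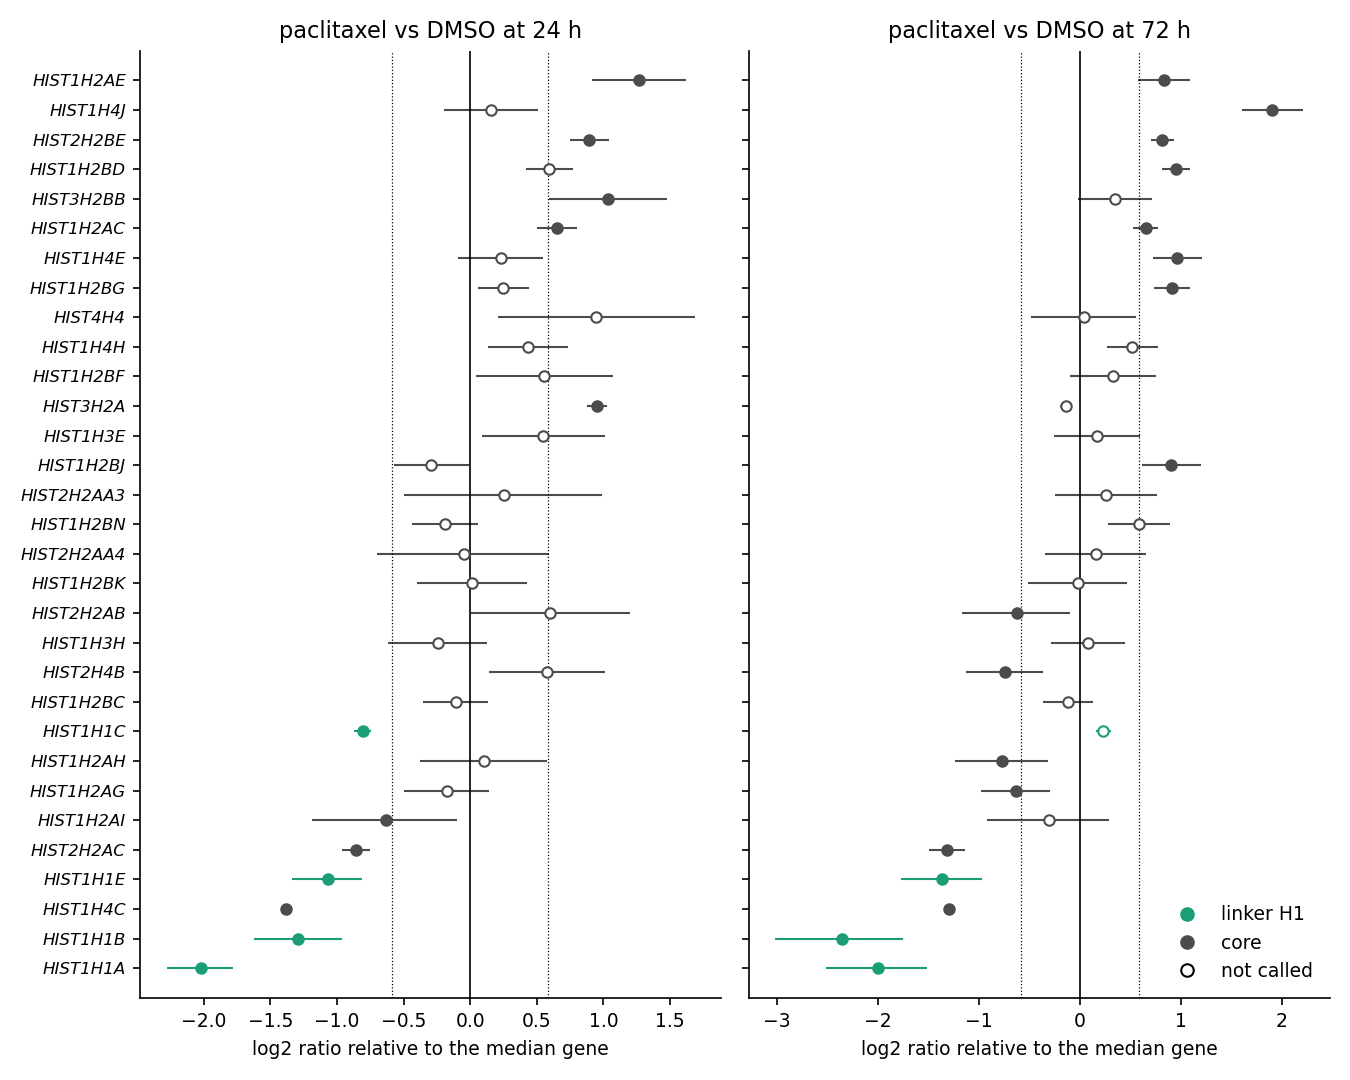
Relative log2 ratio of paclitaxel over DMSO for the 31 members of at least 1 CPM at 24 h (left) and 72 h (right), with 95% counting intervals. Filled points are called at the 1 CPM minimum, green marks linker H1 genes, dotted lines mark 1.5-fold and the solid line the median gene. HIST1H4C (−1.38 and −1.29) and 3 H1 genes lie far to the lower side in both panels, and HIST2H2BE (0.90 and 0.81) to the higher side.

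At 72 h a small number of paclitaxel cells held many UMIs of the core members other than HIST1H4C. Each cell was thinned to the same number of UMIs so that counts per cell are comparable, which left 733, 1067, 468 and 760 cells in the paclitaxel 24 h, DMSO 24 h, paclitaxel 72 h and DMSO 72 h libraries. The 35 core members other than HIST1H4C had a median of 3 UMIs per thinned cell with paclitaxel and 3 with DMSO at 24 h, and of 5.5 with paclitaxel and 5 with DMSO at 72 h. Cells with 20 or more of these UMIs numbered 40 (8.55%) with paclitaxel and 15 (1.97%) with DMSO at 72 h, against 5 (0.682%) and 4 (0.375%) at 24 h. The highest cell held 212 of these UMIs in paclitaxel 72 h and 29 in DMSO 72 h, and 38 and 26 at 24 h. The 72 h medians of this sum thus lay close together while the paclitaxel library had a long upper tail. The 4 members called higher at 72 h at the 10 CPM minimum were also found in more cells with paclitaxel than with DMSO. Thinned cells with a UMI were 43.6% and 33.2% for HIST2H2BE and 39.3% and 28.9% for HIST1H2AC. They were 33.8% and 25.3% for HIST1H2BD, and 22.9% and 15.1% for HIST1H2BG. Leaving out the 1% of cells with the highest such share in every library ended the 72 h call of HIST1H2BG (0.46). Leaving out 5% also ended those of HIST2H2BE (0.56) and HIST1H2AC (0.54), and of the 4 members HIST1H2BD (0.74) was still called. This alternative was chosen after the data were seen, and cells were ranked by a sum that holds these same 4 members. The 5% left out held 26.3% of the summed UMIs in paclitaxel 72 h and 12.1% in DMSO 72 h. A fall of the ratios was thus built into the choice of cells, so it does not show how far the calls rested on few cells. For HIST1H4C the medians themselves lay apart. They were 4 UMIs per thinned cell with paclitaxel and 14 with DMSO at 24 h, and 2 with paclitaxel and 4 with DMSO at 72 h. Cells with 20 or more HIST1H4C UMIs made up 13.6% with paclitaxel and 42.9% with DMSO at 24 h, and 5.34% and 17% at 72 h.

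Cell cycle phases were called from published S and G2M gene lists, which hold no member. Of thinned cells, 35.9% with paclitaxel and 45.5% with DMSO were called S phase at 24 h, and 16.2% and 26.6% at 72 h. Cells called G1 were 34.9% with paclitaxel and 14.7% with DMSO at 24 h, and 67.7% and 50.1% at 72 h. Phase makeup thus differed with treatment and time alongside the histone values. The amount of free RNA in each library, which can enter such calls, was not measured.

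HIST1H4C was far higher in S phase cells than in G1 cells. Its mean per thinned cell was 13.3 UMIs in S and 2.02 in G1 cells with paclitaxel at 24 h, 37.0 and 2.61 with DMSO at 24 h, 11.1 and 1.79 with paclitaxel at 72 h, and 20.4 and 2.82 with DMSO at 72 h. Its log2 ratio of S over G1 was 2.72, 3.83, 2.63 and 2.85 in these 4 libraries. HIST2H2AC was also above 1 in each (1.85, 2.63, 1.68 and 1.82, in the same order). HIST1H1A, HIST1H1E and HIST1H1B were higher in S than in G1 in every library, with 2.64, 3.92, 0.84 and 3.31 for HIST1H1A. HIST1H1B had no UMI in the G1 cells of paclitaxel 72 h, so no ratio is given there. These 5 members are the ones called lower with paclitaxel at both times. The other 3 members that were higher in S than in G1 cells in every library, HIST1H2AG, HIST1H2AH and HIST2H4B, were called lower at 72 h only. Several of these ratios rest on few UMIs. In the library with the fewest, G1 cells held 5 thinned UMIs of HIST1H1A and 4 of HIST1H1E. For HIST1H2AG the fewest were 3, and for HIST1H2AH and HIST2H4B 2 each. The lowest S over G1 log2 ratio of HIST1H2AH was 0.06.

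Several members called higher with paclitaxel had the opposite pattern over phases. The log2 ratio of S over G1 in paclitaxel 24 h, DMSO 24 h, paclitaxel 72 h and DMSO 72 h was −1.09, −1.37, −1.44 and −0.89 for HIST2H2BE. It was −1.69, −0.45, −1.27 and −1.98 for HIST1H2AC, and −1.12, −0.78, −1.47 and −1.31 for HIST3H2A. HIST1H2BD and HIST1H2AE were also lower in S cells in every library. Other members called higher had mixed signs over the libraries. The range was −2.46 to 0.74 for HIST1H4J, −1.26 to 0.47 for HIST1H4E and −2.11 to 0.81 for HIST1H2BJ. It was −0.99 to 0.04 for HIST1H2BG and −0.75 to 0.07 for HIST3H2BB. HIST1H1C had no single direction (−0.33, 0.65, −1.52 and −0.44): it was higher in S cells in DMSO 24 h and lower in the other 3 libraries. Of the 31 members of at least 1 CPM, 8 were higher in S than in G1 cells in all 4 libraries, 8 were lower in all 4 and 15 were mixed, some on few UMIs. For the core sum the ratio was 1.16, 2.64, 0.51 and 1.27, and without HIST1H4C it was −0.62, 0.00, −1.07 and −0.70. For the H1 sum it was −0.03, 0.97, −1.32 and 0.01, and without HIST1H1C it was 2.86, 3.45, 1.06 and 2.93.

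Across members, a higher S over G1 ratio went with a lower paclitaxel ratio. To keep the readouts in separate libraries, the S over G1 ratio was averaged over the 2 libraries of the other time. Pearson's r was −0.66 and Spearman's rho −0.53 over 28 members at 24 h, and −0.86 and −0.73 over 31 members at 72 h. Over the 8 members of at least 10 CPM they were −0.84 and −0.79 at 24 h and −0.90 and −0.79 at 72 h. The points share libraries, and members with near-identical copies share reads, so these values are a description.

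**Figure D3:**
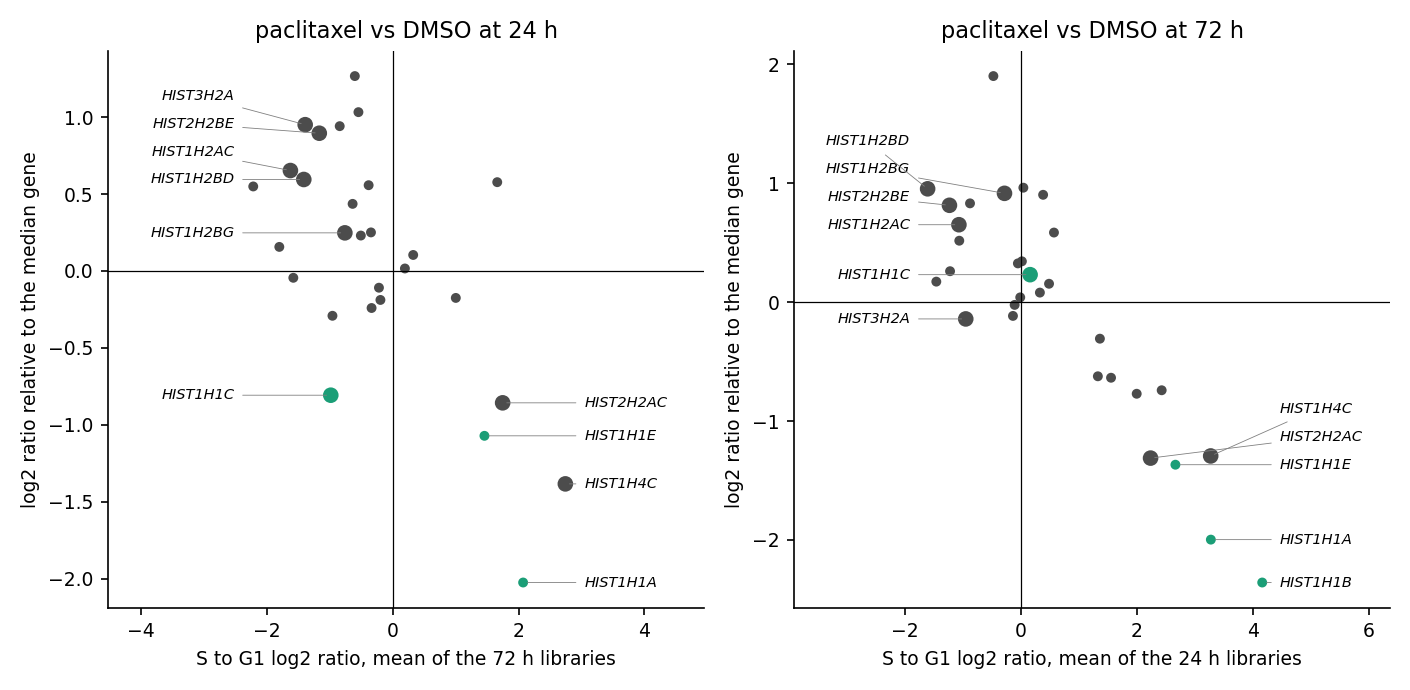
Each point is a member. The x axis is its log2 ratio of S over G1 cells, averaged over the libraries of the other time, and the y axis its relative log2 ratio of paclitaxel over DMSO at 24 h (left) and 72 h (right). Large points are members of at least 10 CPM and green points are linker H1 genes. Members raised in S phase, such as HIST1H4C, lie low (r = −0.66 at 24 h and −0.86 at 72 h). HIST1H1B (0 UMIs in G1 cells), HIST1H2AI and HIST2H2AB (0 UMIs in S cells) have no S over G1 ratio in paclitaxel 72 h and are not in the left panel.

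**Figure D4:**
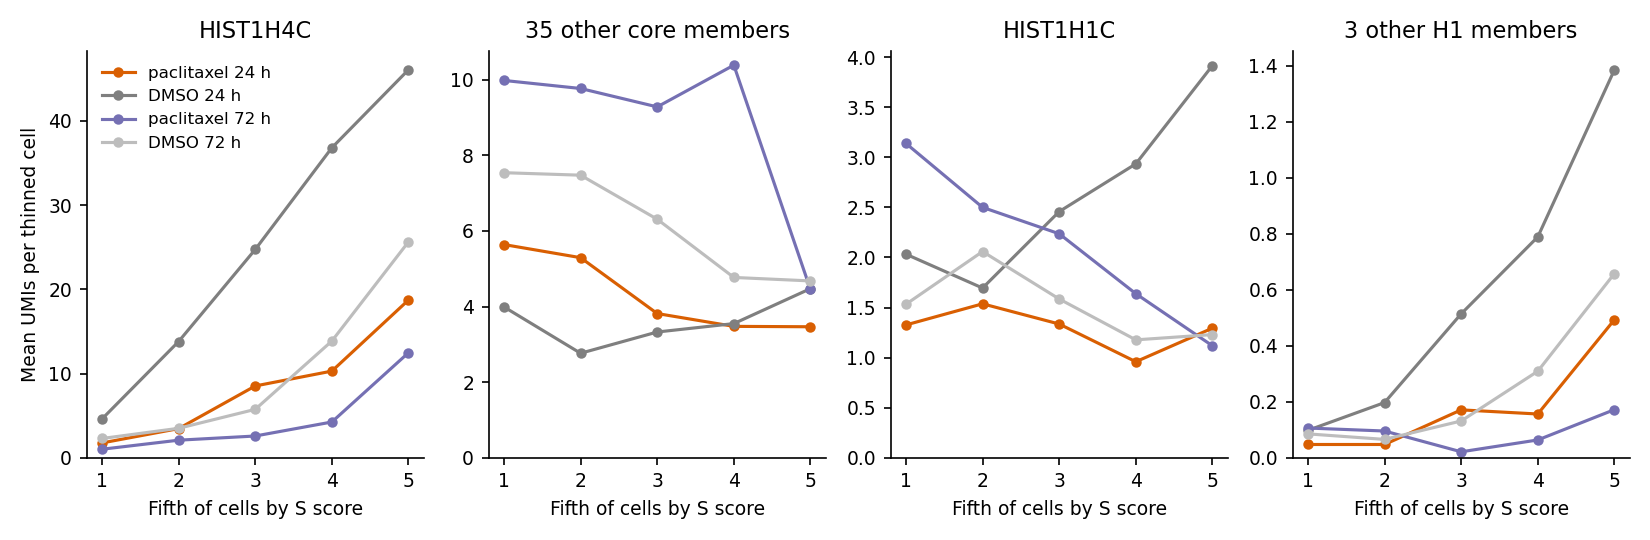
Mean UMIs per thinned cell by quintile of S phase score, from lowest to highest, in the 4 libraries, for HIST1H4C, the 35 other core members, HIST1H1C and the 3 other linker H1 genes. HIST1H4C climbs over the quintiles in every library, to 46.1 UMIs in the highest against 4.61 in the lowest in DMSO 24 h, while in paclitaxel 72 h the other core members are at 4.45 in the highest and 9.98 in the lowest.

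HIST1H4C was lower with paclitaxel within S phase cells too. At 24 h it was at 569 CPM in S cells with paclitaxel and 1643 CPM in those with DMSO, and at 72 h at 490 CPM and 875 CPM. The relative log2 ratio within G1, S and G2M cells was −0.40, −1.36 and −0.90 at 24 h and −0.66, −1.14 and −0.76 at 72 h, so that all 6 were below 0, with the G1 value at 24 h short of the call. HIST1H1C was at −0.52, −1.34 and −0.48 in G1, S and G2M cells at 24 h, and at 0.09, −0.91 and 0.76 at 72 h. Its uncalled total at 72 h thus covered a lower value in S cells and a higher one in G2M cells. HIST2H2AC was at 0.02, −0.78 and −0.66 at 24 h and at −0.93, −1.26 and −0.93 at 72 h.

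The 4 members of at least 10 CPM called higher at 72 h were set apart mainly in cells called G2M. There the relative log2 ratio was 1.68 for HIST2H2BE, 1.85 for HIST1H2BD, 1.80 for HIST1H2BG and 1.31 for HIST1H2AC, from 75 cells with paclitaxel and 177 with DMSO. In G1 cells the same genes were at 0.31, 0.47, 0.33 and 0.15, and in S cells at 0.32, 0.22, 0.27 and 0.34, all short of the call. The scarcer H4 genes were higher in G1 cells too: HIST1H4J averaged 0.363 UMIs per thinned G1 cell with paclitaxel and 0.0761 with DMSO, and 0.387 and 0.0508 per G2M cell. HIST1H4E averaged 0.221 and 0.0997 UMIs per G1 cell with paclitaxel and DMSO, and 0.640 and 0.107 per G2M cell. The H4 genes without HIST1H4C had a relative log2 ratio of 0.63 (0.45 to 0.81) in G1, −0.21 (−0.53 to 0.10) in S and 1.26 (1.03 to 1.5) in G2M cells. Over cells called G2M at 72 h, the core members without HIST1H4C summed to 465 CPM in paclitaxel cells and 209 CPM in DMSO cells, a relative log2 ratio of 0.93 (0.86 to 1.00). In the other phases this sum lay on the other side of the median gene, at −0.13 (−0.18 to −0.09) in G1 cells and −0.49 (−0.59 to −0.39) in S cells. The tail of cells bears on this: 9 of 75 G2M cells with paclitaxel and 3 of 177 with DMSO held 20 or more of these UMIs, while the median G2M cell held 3 with paclitaxel and 4 with DMSO. In G1 cells at 72 h, 31 of 317 with paclitaxel and 12 of 381 with DMSO held 20 or more, with a median of 7 in both, and in S cells 0 of 76 and 0 of 202 did. HIST3H2A was at 0.85, 0.76 and 0.53 in G1, S and G2M cells at 24 h and at −0.54, −1.02 and 0.72 at 72 h, so that its uncalled total at 72 h covered lower values in G1 and S cells and a higher one in G2M cells. At 24 h HIST1H2AC was at 1.08, 0.16 and −0.08 in these phases, higher in G1 cells and not in G2M cells.

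**Figure D5:**
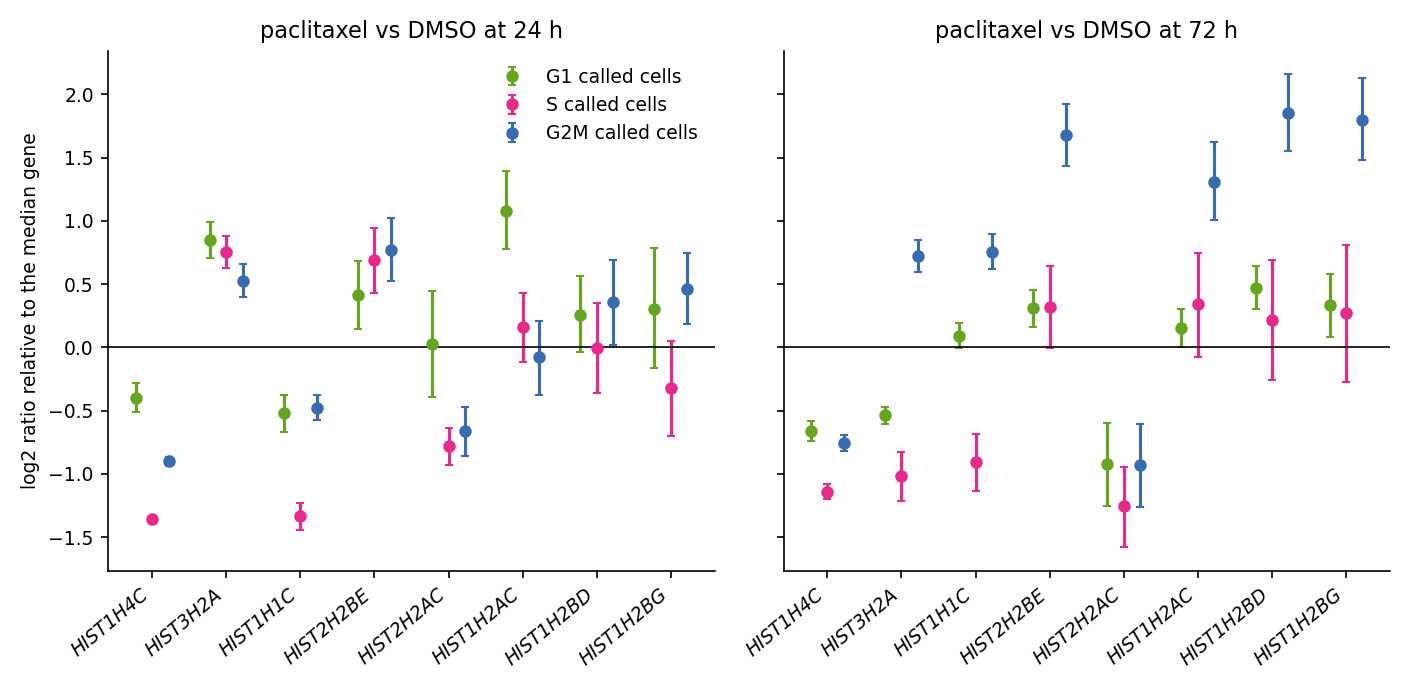
Relative log2 ratio of paclitaxel over DMSO for the 8 members of at least 10 CPM within cells called G1, S and G2M, at 24 h and 72 h. HIST1H4C lies below 0 in all 3 phases at both times (−1.36 in S cells at 24 h), and HIST1H2BD, HIST1H2BG and HIST2H2BE lie highest in G2M cells at 72 h (1.85, 1.80 and 1.68).

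Members also differed between the 72 h and 24 h libraries of the same treatment. In DMSO cells at 72 h over DMSO cells at 24 h, HIST3H2A (1.98), HIST2H2BE (1.42), HIST1H2BD (1.29) and HIST1H2AC (1.24) were called higher and HIST1H4C (−0.93) lower, of 7 members of at least 10 CPM. Of all genes tested there, 13% were called higher and 9.89% lower. In paclitaxel cells at 72 h over 24 h the same 4 were called higher (0.89, 1.34, 1.65 and 1.24, in that order), as were HIST1H1C (0.59) and HIST1H2BG (1.27), and HIST1H4C (−0.84) and HIST2H2AC (−0.95) were called lower. Of all genes tested in paclitaxel cells, 7.95% were called higher and 4.93% lower. These ratios share libraries with the comparisons of paclitaxel with DMSO. Time and library cannot be told apart here, and phase makeup differed between the times as given above.

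Neighbouring genes did not always go together. Of 10 pairs of members that point away from each other within 500 bases, HIST2H2BE and HIST2H2AC differed most clearly: on either side of the stretch printed above, HIST2H2BE was at 0.90 and 0.81 at 24 h and 72 h, and HIST2H2AC at −0.86 and −1.31. HIST1H2AC was called higher at both times, and HIST1H2BC, 219 bases away, was at −0.11 and −0.12. HIST1H2BJ and HIST1H2AG were at 0.90 and −0.64 at 72 h. In 1 pair both were called higher at 24 h, HIST3H2A (0.95) and HIST3H2BB (1.03), and in another at 72 h, HIST1H2BG (0.92) and HIST1H2AE (0.83).

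Lower calls were mostly of members with short annotated 3′ ends, and most members with long ends were not called. Of the members, 20 had at least 200 annotated bases after the stop codon. At the 1 CPM minimum, 4 of 16 such members were called higher and 0 lower at 24 h (median 0.49), and 6 of 17 higher and 2 lower at 72 h (median 0.34). Of all genes at that minimum, 8.57% were higher and 2.45% lower at 24 h, and 13.9% higher and 10% lower at 72 h. Of those with shorter annotated ends, 1 of 11 was called higher and 7 lower at 24 h (median −0.81), and 2 of 14 higher and 7 lower at 72 h (median −0.47). The sum of the short-end members other than HIST1H4C had a relative log2 ratio of −0.79 at 24 h and −0.05 at 72 h. Over all genes tested at that minimum the median was 0.03 at 24 h and 0.01 at 72 h. The grouping was chosen after the values were seen, rests on how far an annotation runs, and has no test. The 6 members with known polyadenylated transcripts outside S phase (HIST1H1C, HIST1H2AC, HIST1H2BC, HIST1H2BD, HIST1H2BK and HIST2H2BE) summed to 98.9 and 136 CPM with paclitaxel and DMSO at 24 h and to 211 and 124 CPM at 72 h. Of these 6, 2 were called higher and 1 lower at 24 h, and 3 higher and 0 lower at 72 h.

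The genes that make and handle histone messages and proteins were mostly not called. Of all genes tested at the 10 CPM minimum used here, 6.3% were called higher and 1.26% lower at 24 h, and 11.1% and 7.93% at 72 h. Of 16 measured genes of histone gene transcription and 3′ end processing, 0 were called higher and 2 lower at 24 h. These were LSM10, a subunit of U7 snRNP, at 45.8 CPM in paclitaxel cells and 75.6 CPM in DMSO cells, and YBX1, an RNA-binding protein, at 1538 and 2699 CPM. At 72 h, of 12, 0 were higher and 1 lower (CSTF2T, a cleavage stimulation factor subunit, −0.72). Of 12 histone chaperone genes none was called at 24 h, and at 72 h ASF1A (0.62) was higher and TONSL (−0.60) lower. Of 11 replication-independent histone variant genes, whose messages carry poly(A) tails, H1F0 was called higher at 24 h (126 CPM in paclitaxel cells and 91.4 CPM in DMSO cells). H2AFX, whose message can end either way, was called lower at both times, at 43.0 and 76.3 CPM with paclitaxel and DMSO at 24 h and at 22.4 and 33.8 CPM at 72 h. Of the S phase list, 0 of 39 measured genes were called higher and 1 lower at 24 h (median −0.24), and 1 of 36 higher and 7 lower at 72 h (median −0.30).

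Over single cells, the genes most like HIST1H4C were KIAA0101, the PCNA-associated factor (mean Pearson r over the 4 libraries 0.59), SIVA1 (0.56), ATAD2 (0.52), MYBL2 (0.52), TYMS, the thymidylate synthase (0.49), DEK (0.46), CDK1 (0.45), TOP2A (0.45), TUBB (0.43) and DNMT1 (0.43), of 1996 genes of at least 50 CPM. ATAD2 and TYMS are on the list used to call S phase. Among members, HIST1H4C and HIST2H2AC correlated over cells at 0.24 to 0.48 in the 4 libraries, HIST1H2AC and HIST1H2BD at 0.21 to 0.48, and HIST1H4C and HIST3H2A at −0.28 to −0.11. Cells of a library share its preparation, so these are descriptions.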

How the data were processed

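The deposited files hold raw UMI counts per gene and cell barcode, 1 table per library, made by the authors with Cell Ranger 2.0 on GRCh38, per the submitters' processing notes. Each deposited table lists only genes with a UMI in at least about 1% of its cells (a minimum of 8, 12, 6 and 8 cells in paclitaxel 24 h, DMSO 24 h, paclitaxel 72 h and DMSO 72 h). Other filters and how multi-mapping reads were counted are not given in the sources used here. The members and lists were chosen with earlier results of these data known.

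Cells with at least 500 genes and under 20% mitochondrial UMIs were kept (3180 of 3194). UMIs of the kept cells were summed per library and scaled to CPM. A call needs an average of 10 CPM or more in the pair of libraries compared (1 CPM as an alternative), 1.5-fold from the median gene, and an exact conditional 95% interval of the ratio that excludes it. With 1 library per group no test between groups was possible. By Scrublet, 4, 7, 3 and 5 cells were doublets in these libraries, and they were kept in the main values. Phases were called in scanpy 1.11.5 on cells thinned to 1 fixed number of UMIs, leaving out 43, 34, 52 and 23 shallower cells, with 42 S and 54 G2M genes. Intervals and the floor of 3 counts (0.0417 to 0.0861 CPM) cover counting error only. Named were members of at least 10 CPM on average, all H1 genes, called members, called genes of the lists, and the 10 genes most like HIST1H4C. Stem-loops and ends came from GENCODE 29 transcripts, promoters from RefSeq GRCh38.p14. In 5 members at least 50 percent of the 60-base words near the annotated 3′ end recur in another member. Another gene is overlapped by 11 members, 6 of them on the same strand. The counts of all these members are uncertain. Alternatives covered scaling (TMM from edgeR 4.0.16, totals, no subtraction), cell filters, minimum level, fold, phases and members left out. The steps were tested on simulated data. Other tools were Python 3.11.15, numpy 2.4.6, pandas 2.3.3 and scipy 1.17.1.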

Additional observations from a re-analysis of the deposited data

Results flagged for a closer look

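HIST1H1C lay on opposite sides of the median gene at the 2 times. Its relative log2 ratio of paclitaxel over DMSO was −0.81 at 24 h and 0.23 at 72 h, from 53.6 and 103 CPM in paclitaxel and DMSO cells at 24 h and 88.0 and 61.8 CPM at 72 h. The difference between the times was not tested, since each value rests on 1 library per group.

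HIST3H2A went the other way, with 0.95 at 24 h and −0.14 at 72 h. The 72 h value was not called, and the difference between the times was again not tested.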

How the results depend on the processing

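No paired analysis was possible because each group is 1 library and no replicate number links libraries. The calls of the 8 members that average at least 10 CPM over the libraries did not change when all barcodes were kept. Nor did they change without cells marked by Scrublet, or when cells needed at least 1000 genes and under 10% mitochondrial UMIs. The same held with TMM factors and with totals free of ribosomal protein and mitochondrial genes. With no subtraction of the median, HIST1H2AC at 24 h (13.5 CPM with paclitaxel and 9.47 CPM with DMSO) fell short of 1.5-fold and was not called. Where a value below moved, the cause was not tested.

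The counts of members called higher and lower were 3 and 3 at 24 h and 4 and 2 at 72 h. At a 1 CPM minimum they were 5 and 7 at 24 h and 8 and 9 at 72 h. At 50 CPM 1 was higher at 24 h, and 0 higher and 1 lower at 72 h. At 2-fold 0 were higher at either time and 1 lower at 24 h. In G1 cells 0 were lower at 24 h, and 0 higher and 1 lower at 72 h. In S cells 0 were higher and 4 lower at 72 h, and in G2M cells 1 was higher at 24 h and 9 at 72 h. With totals free of ribosomal protein and mitochondrial genes 7 were higher at 72 h, and without the top 5% of cells 1 was. The number of members measured and the share of all genes called are given above only for the main setting and the 1 CPM minimum. The other counts in this paragraph therefore have no background to be read against. In G1 cells at 24 h HIST2H2AC was at 0.023, and in G2M cells HIST1H2AC was at −0.079, both with the sign turned.

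The H1 share of histone UMIs, in the order paclitaxel 24 h, DMSO 24 h, paclitaxel 72 h and DMSO 72 h, was 26.3%, 46.2%, 19.97% and 21.8% without HIST1H4C and 1.35, 1.92, 0.659 and 1.54% without HIST1H1C. It was 9.52, 7.93, 14.8 and 8.43% over members of at least 10 CPM and 10.9, 9.95, 14.6 and 9.77% as a mean of per-cell CPM. In DMSO 24 h it was 9.08% under the stricter cell filter.

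The relative log2 ratio of the H1 sum at 24 h and 72 h was −1.06 and 0.33 with no subtraction of the median, −1.55 and −1.80 without HIST1H1C, and −0.81 and 0.23 over members of at least 10 CPM. At 24 h it was −0.84 as a mean of per-cell CPM and −0.77 without the top 5% of cells. For the core sum it was −1.17 and −0.29 with no subtraction, 0.35 and 0.21 without HIST1H4C, 0.58 and 0.28 without HIST1H4C and HIST2H2AC, and −1.10 and −0.69 over members of at least 10 CPM. At 24 h the core sum was at −1.08 with TMM factors, −1.06 with totals free of ribosomal protein and mitochondrial genes and −1.0 as a mean of per-cell CPM. At 72 h it was at −0.65 without the top 1% and −0.72 without the top 5% of cells.

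The log2 ratio of S over G1 for H1, in the same order, was 2.86, 3.45, 1.06 and 2.93 without HIST1H1C, and for the core it was −0.62, 0.00047, −1.07 and −0.70 without HIST1H4C. With the highest against the lowest of 3 equal groups of cells by S list UMIs it was 1.36 for H1 in DMSO 24 h and 1.30, 2.16, 0.80 and 1.42 for the core. G2M in place of S cells gave 0.22 in DMSO 24 h and 0.27 in paclitaxel 72 h for H1, and 0.92, 1.82, 0.95 and 0.92 for the core. Thinning to 15000 UMIs gave 1.08 for the core in paclitaxel 24 h, and no thinning 1.19 in DMSO 72 h. The lowest members, such as HIST1H1B with 26 UMIs in paclitaxel 72 h, are limited by depth.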

Other observations

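For HIST3H2A and the core members other than HIST1H4C together, the highest counts in single cells were in the paclitaxel 72 h library. HIST3H2A reached 110 UMIs in 1 thinned cell there, against 20 in the highest DMSO 72 h cell, and 20 and 15 in the highest paclitaxel and DMSO cells at 24 h. The top 10% of cells held 42% of the UMIs of the 35 core members other than HIST1H4C with paclitaxel and 26.5% with DMSO at 72 h, and 30.7% and 29.7% at 24 h.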
